A study of Mus musculus with 39 samples.

Results

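The comparison set Braf-mutated mouse melanoma tumours given vehicle for 5 days against tumours given vehicle for 2 days. Its members were the libraries labelled with vehicle treatment, 5 at each time point, or 10 of the 39 libraries of the series. All tumours grew in C57BL/6 mice from cells that had been kept in culture and were then injected, and dosing began on day 7 after injection. Vehicle was a mixture of 60 parts DMSO-PEG400 to 40 parts water, given bidaily at 200 µl, so these tumours received solvent but no drug, and more time in the animal and more doses of solvent cannot be told apart. The other 29 libraries came from tumours given anti-PD-1 (an antibody against an inhibitory receptor of T cells), EPAT (drugs that block EP2 and EP4, which are receptors of prostaglandin E2) or anti-PD-1 plus EPAT for the same 2 or 5 days. The labels name neither the cell line nor the injection site, and the extraction text speaks of tumours taken on day 4, which is neither time point. The groups follow the time point of each sample.

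A transplanted tumour is a mixture. Its cancer cells divide under the drive of the mutated kinase BRAF through the MAPK pathway, while blood vessels, fibroblasts and immune cells of the host enter it, and the excised piece can carry muscle, fat, skin or lymph node from its margin. With growth such tumours often become less well supplied with oxygen and lay down collagen. In RNA from a whole tumour, fewer cells of a type and less RNA per cell cannot be told apart.

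Each library was made from the 3′ ends of polyadenylated RNA, and values are CPM, counts scaled to the library's size after TMM normalisation, unless stated. Total counts were 8385741 to 15558113 in the 10 vehicle libraries. Every pair of replicates differed by more than counting noise. The tumour type is given by the labels, and melanocyte genes were looked at beside it. Mitf, the lineage transcription factor, was at 40.5 to 55.8 CPM on day 2 and 32.4 to 51.8 on day 5, and Ednrb at 16.2 to 29.9 and 16.5 to 21.4. The pigment genes were at or near 0, with 0 counts of Tyrp1, 1 of Tyr, 2 of Mlana, 6 of Dct and 26 of Pmel over the 10 libraries. Sox10 reached at most 2.33 CPM, in day 2 replicate 1, which held 31 of its 49 counts. These values alone do not establish the tumour type, which rests on the labels. Day 2 replicates 1 and 2 stood apart by tissue: replicate 1 carried lymph node and fat genes and replicate 2 keratinocyte genes. Reads of lung genes were present in 3 of 5 libraries at either time point, day 2 replicates 1, 2 and 4 and day 5 replicates 1, 4 and 5. Day 5 replicate 3 had the highest levels of collagen and of most immune lists.

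No gene passed the main test between day 5 and day 2 in vehicle tumours. That test, edgeR's quasi-likelihood test fitted to all 39 libraries, called 0 of 15070 genes (0%), and the smallest adjusted p was 0.14. At an unadjusted p under 0.05 there were 828 genes, of which 482 (3.2% of those tested) were higher on day 5 and 346 (2.3%) lower. In 131 genes (0.869%) every day 5 library lay above every day 2 library, and in 73 genes (0.484%) every one lay below. The median log2 fold change over all genes was -0.00084, with 7515 positive and 7555 negative. DESeq2 called 10 genes, 8 of them described below, and limma-trend on the deposited log2 values called 1, Kng2. The same edgeR test fitted to the 10 vehicle libraries alone called 3, Kng2 among them (smallest adjusted p 0.00235). Values below are described in that light: none passed between the vehicle groups in the edgeR fit to all 39 libraries. A log2 fold change is day 5 against day 2 ± SE, and a positive one means a higher mean on day 5.

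Among the 5 genes with the smallest p in the higher direction, Kng2, Sfrp1, Cxcl14 and Riok3 had all 5 day 5 libraries above all 5 day 2 libraries. Kng2 (chr16:22985854-23029482, minus strand, protein-coding), which encodes a kininogen, the precursor of bradykinin, was at 0.753, 0.25, 0.643, 0.323 and 1.26 CPM in day 2 replicates 1 to 5 and at 6.52, 10.3, 7.84, 4.31 and 4.89 CPM on day 5. The lowest day 5 library thus stood well above the highest day 2 library, and the log2 fold change was 3.36 ± 0.65, 10.2-fold, with an edgeR adjusted p of 0.14. DESeq2, edgeR fitted to the vehicle libraries alone and limma-trend each called it. With and without lung transcripts, the difference in mean log2 CPM was 3.23 and 3.09. With the skeletal muscle score as a covariate the log2 fold change was 2.16.

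Sfrp1 (chr8:23411502-23449632, plus strand, protein-coding) encodes a secreted protein that binds Wnt ligands. It was at 23.9, 52.2, 36.3, 32.4 and 49.9 CPM on day 2 and at 139.8, 246, 562, 72.3 and 131 CPM on day 5. All day 5 libraries were higher, replicate 3 most of all, and the log2 fold change was 2.57 ± 0.55 (5.92-fold, edgeR adjusted p 0.227). Within libraries with lung transcripts the difference in mean log2 CPM was 1.68. Within those without, which on day 5 are replicates 2 and 3, it was 3.12. Cxcl14 (chr13:56288643-56296551, minus strand), a chemokine made constitutively in epithelia and stroma, was at 39.4, 32.6, 73.7, 29.6 and 65.9 CPM on day 2 and 108, 122, 196, 94.1 and 147 CPM on day 5. Its groups did not overlap, and the log2 fold change was 1.47 ± 0.32 (adjusted p 0.227, edgeR).

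Riok3 (chr18:12128741-12157387, plus strand) encodes an atypical kinase of the RIO family. Its difference was small but its libraries were tightly grouped, at 79.4, 102, 94, 80 and 102 CPM on day 2 and 109, 126, 135, 124 and 128 CPM on day 5, a log2 fold change of 0.44 ± 0.10 (adjusted p 0.227, edgeR). Rn7sk (chr9:78175303-78175633, minus strand) is the 7SK RNA, which restrains transcription elongation and has no poly(A) tail, so 3′ libraries sample it poorly. It was at 2.41, 8.36, 3.85, 3.94 and 3.96 CPM on day 2 and 9.95, 27, 24.9, 6.77 and 5.19 CPM on day 5. Here the groups overlapped, day 5 replicates 4 and 5 lying below day 2 replicate 2, and the log2 fold change was 1.72 ± 0.40.

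The 5 genes with the smallest p in the lower direction were of another kind: 4 of them were marker-like genes whose day 2 mean was set by 1 to 3 libraries. Glycam1 (chr15:103562759-103565081, minus strand), an L-selectin ligand of lymph node venules, was at 524, 0.25, 0.241, 0.452 and 0.721 CPM on day 2 and 0, 1.26, 5.26, 0.205 and 0.649 CPM on day 5. Its log2 fold change was -6.23, and 1.75 without day 2 replicate 1. Ms4a1 (chr19:11249675-11266241, minus strand), the B cell antigen CD20, was at 95, 0.374, 0.0803, 0.129 and 0.451 CPM and 1.25, 0.775, 0.574, 0.478 and 0.177 CPM, with a log2 fold change of -4.90 that was 1.35 without the same library. Both signs thus turned on 1 library.

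Ly6d (chr15:74762056-74763620, minus strand), a surface protein of early B cells and of squamous epithelium, was at 51.6, 9.48, 5.06, 1.1 and 0.721 CPM on day 2 and 0.586, 0.872, 2.01, 1.09 and 1.24 CPM on day 5. Day 2 replicates 1 to 3 were high, replicates 4 and 5 lay in the day 5 range, and the log2 fold change was -3.55 ± 0.86. It was -1.79 without day 2 replicate 1 and -0.98 without replicates 1 and 2. Krt15 (chr11:100131758-100135928, minus strand), a keratin of basal keratinocytes, had 103 counts over the day 2 libraries and 1 count over the day 5 libraries. That gives a day 5 to day 2 ratio of 0.0091, with a 95% interval of 0.000228 to 0.0519 that covers counting error only. mt-Nd3 (chrM:9459-9806), a mitochondrially encoded subunit of respiratory complex I, was the exception. It was at 2.56, 1.87, 8.91, 2.58 and 2.07 CPM on day 2 and 0.92, 1.26, 0.67, 0.683 and 1.3 CPM on day 5, so all day 5 libraries were lower, and its log2 fold change was -1.89 ± 0.45 (edgeR adjusted p 0.346). Without day 2 replicate 3, its highest library, that value was -1.23.

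**Figure D1:**
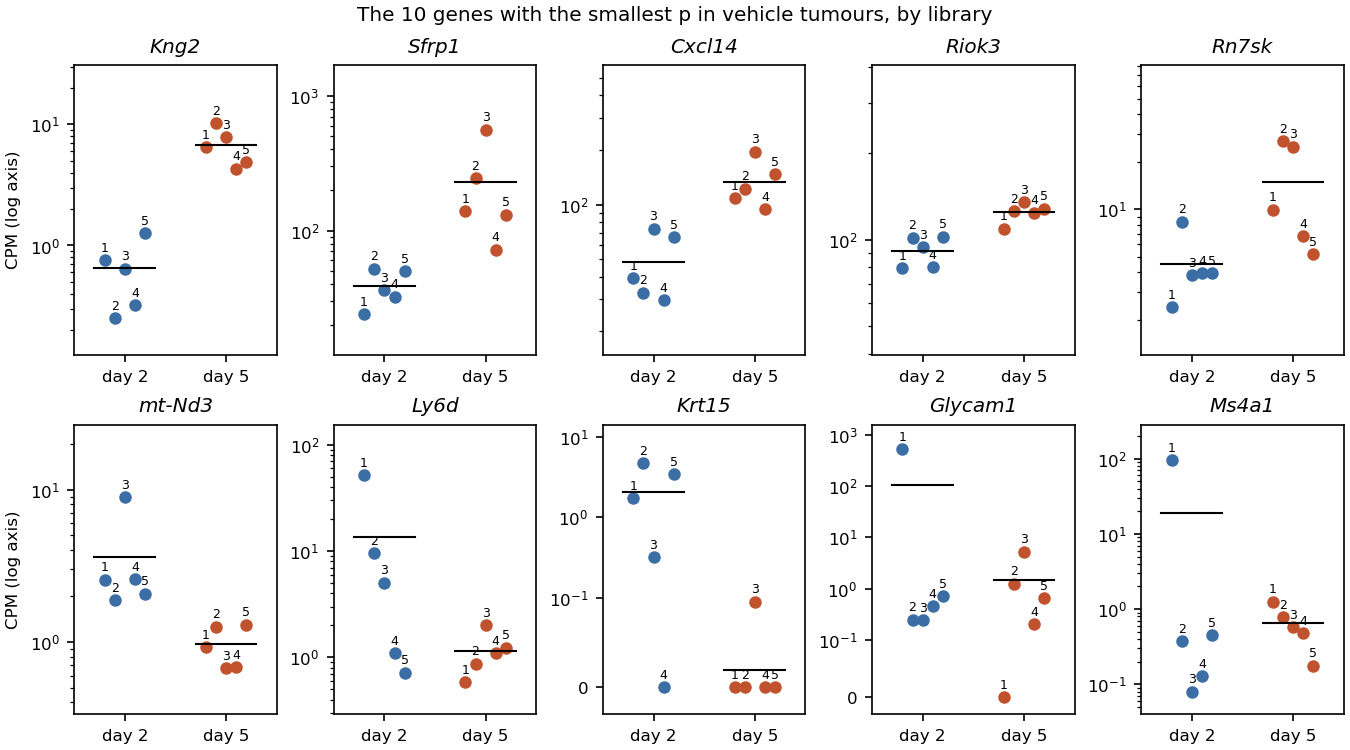
CPM on a log axis (linear below 0.1 where a library is at 0) of the 10 genes with the smallest p, 5 in each direction, in vehicle tumours on day 2 and day 5. Points are libraries with their replicate number and bars are means of 5. The groups are separate in Kng2, Sfrp1, Cxcl14, Riok3 and mt-Nd3, while Glycam1 and Ms4a1 are high in day 2 replicate 1 only.

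The treated arms share no library with vehicle, so their values stand beside those above. Sfrp1 rose between day 2 and day 5 over the 3 treated arms, by 1.67 ± 0.32 log2 units with an edgeR adjusted p of 0.00641, and its value in the single arms was 1.31 ± 0.57 for anti-PD-1, 1.29 ± 0.53 for EPAT and 2.41 ± 0.55 for the combination. Kng2 was at 0.90 ± 0.34 (adjusted p 0.179) over the treated arms, with 0.48 ± 0.60 in anti-PD-1, 0.70 ± 0.57 in EPAT and 1.53 ± 0.58 in the combination. For Cxcl14 the treated value was 0.40 ± 0.19 (adjusted p 0.282), with -0.18 ± 0.33 in anti-PD-1, -0.02 ± 0.31 in EPAT and 1.41 ± 0.32 in the combination. Whether the arms differ in Cxcl14 was not tested. mt-Nd3 was at -0.65 ± 0.26 (adjusted p 0.224), with 0.24 ± 0.48 in anti-PD-1, -0.25 ± 0.45 in EPAT and -1.93 ± 0.45 in the combination. Glycam1 was at 1.85 and Ms4a1 at -0.27. The difference between the vehicle value and the treated mean was 2.45 ± 0.71 for Kng2, 0.90 ± 0.61 for Sfrp1 and 1.06 ± 0.37 for Cxcl14, and none passed (adjusted p 1 in edgeR).

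Skeletal muscle fibre genes had the highest median of the 43 lists. All 30 listed genes were tested and all 30 had a positive log2 fold change, with a median of 2.68 against -0.00084 over all genes. None passed over all genes, 14 were at an unadjusted p under 0.05 against 3.2% of all genes tested, and in 14 every day 5 library lay above every day 2 library against 0.869%. These genes come from one tissue and vary together, so they are not independent. Pvalb, a calcium buffer of fast fibres, was at 0.151, 2.62, 0, 0.0646 and 6.31 CPM on day 2 and 63, 23.3, 11.9, 26.4 and 16.3 CPM on day 5, a log2 fold change of 4.03 ± 1.49. Actn3, the alpha-actinin of fast fibres, was at 0.226, 8.73, 0.241, 0.194 and 5.86 CPM and 47.5, 25.2, 18.9, 23.2 and 11.7 CPM (3.15 ± 1.30). In both genes day 2 replicates 2 and 5 held muscle transcripts and the other 3 day 2 libraries almost none, while all 5 day 5 libraries held more. Acta1, skeletal actin, followed the same order at 2.56, 142, 1.69, 1.42 and 202 CPM and 681, 461, 401, 456 and 243 CPM (2.68 ± 1.51), as did Myh4, the fastest myosin heavy chain, at 1.66, 66.6, 0.482, 0.452 and 91.6 CPM and 344, 115, 143, 188 and 104 CPM (2.49 ± 1.48).

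Casq1, the calcium-binding protein of the muscle reticulum, was at 3.35 ± 1.31 log2 units, and Myh7, the slow myosin, at 4.62 ± 1.89, although Myh7 was listed at 0 counts in day 5 replicate 3. Muscle fibre genes took 0.0137% to 0.12% of all counts on day 2 and 0.112% to 0.392% on day 5. The exact two-sided permutation test gave p = 0.0159 for this share, or 0.0952 after adjustment over 6 library-level values, where 5 against 5 libraries allow no p below 0.00794. The muscle score, the mean log2 CPM of the list, was 0.34, 3.3, -0.07, -0.3 and 3.54 in day 2 replicates 1 to 5 and 5.73, 4.95, 4.46, 4.92 and 3.67 on day 5. Within libraries with lung transcripts the score differed by 3.66 and within those without by 2.97.

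By its median score the vehicle day 2 group was also lower in muscle than the other day 2 groups, which was not tested. The median was 0.34, against 4.68 for anti-PD-1, 4.84 for EPAT and 3.65 for the combination on day 2. The ranges overlapped, at -0.301 to 3.545 for vehicle and -0.502 to 6.364, -0.03 to 6.392 and 0.33 to 4.212 for those arms in turn. A score under 1 was found in 3 of 5 vehicle and 3 of 14 treated day 2 libraries. On day 5 the vehicle median was 4.92 and the treated medians were 3.25, 3.97 and 4.48. Over the treated arms the median log2 fold change of the list was 0.62, with 30 of 30 positive and 0 called, but the medians of the arms had different signs, a difference that was not tested: the list median was 1.18 for anti-PD-1, -0.68 for EPAT and 1.3 for the combination. The difference between vehicle and treated arms passed for no member.

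Promoters of the fibre genes are shown because the members were high or low together in these libraries. Of the 30 genes, 23 had a promoter entry in RefSeq (GRCm38.p6). The E-box CAGCTG, the core letters bound by myogenic factors such as MyoD, which reads the same on both strands, lay within 250 bases before the start of 12 of these 23 genes (52.2%) and of 14.7% of the 27025 genes with an entry. One strict form of the MEF2 site, searched on both strands, was in 0 of 23 and in 0.1% of all, and TATAAA was in 5 of 23 (21.7%) and 14.3% of all. A match describes the letters only. The windows below are of the 3 E-box genes with the smallest p, chosen with promoters on the chromosome of Riok3 left out. Each window holds 120 bases around the E-box, which is in capitals. Casq1 lies at chr1:172220026-172220145 on the minus strand, Tnni1, slow troponin I, at chr1:135799296-135799415 on the plus strand, and Myl1, a fast myosin light chain, at chr1:66945187-66945306 on the minus strand.
Casq1: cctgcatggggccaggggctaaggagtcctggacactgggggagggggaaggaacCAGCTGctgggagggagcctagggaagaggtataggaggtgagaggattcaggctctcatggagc
Tnni1: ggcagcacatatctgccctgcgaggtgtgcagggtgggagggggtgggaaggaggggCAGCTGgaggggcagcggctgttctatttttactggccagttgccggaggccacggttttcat
Myl1: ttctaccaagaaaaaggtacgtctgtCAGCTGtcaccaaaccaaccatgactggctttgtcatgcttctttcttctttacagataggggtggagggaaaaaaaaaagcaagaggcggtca

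The log2 fold changes of Tnni1 and Myl1 were 1.85 ± 0.78 and 3.22 ± 1.40. Genes of muscle regeneration and denervation were less uniform, with 12 of 16 positive and a median of 0.74. In the higher direction 1 was at an unadjusted p under 0.05, against 3.2% of all genes tested. Chrng, the acetylcholine receptor subunit of embryonic and denervated muscle, had 3 counts over the day 2 libraries and 43 over the day 5 libraries, a ratio of 13.4 with a 95% counting interval of 4.3 to 67.7. Chrna1, the receptor's alpha subunit, was at 7.48 to 10.3 CPM on day 2 and 10.7 to 16.1 CPM on day 5, without overlap (0.58 ± 0.34). Myh3, embryonic myosin, was at 3.14 ± 1.57, and Myod1, the myogenic factor, at 2.41 ± 1.43. Pax7, the factor of muscle stem cells, had 10 counts over the 10 libraries and was not tested. In the treated arms Myh3 rose by 4.45 log2 units (edgeR adjusted p 0.00864).

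**Figure D2:**
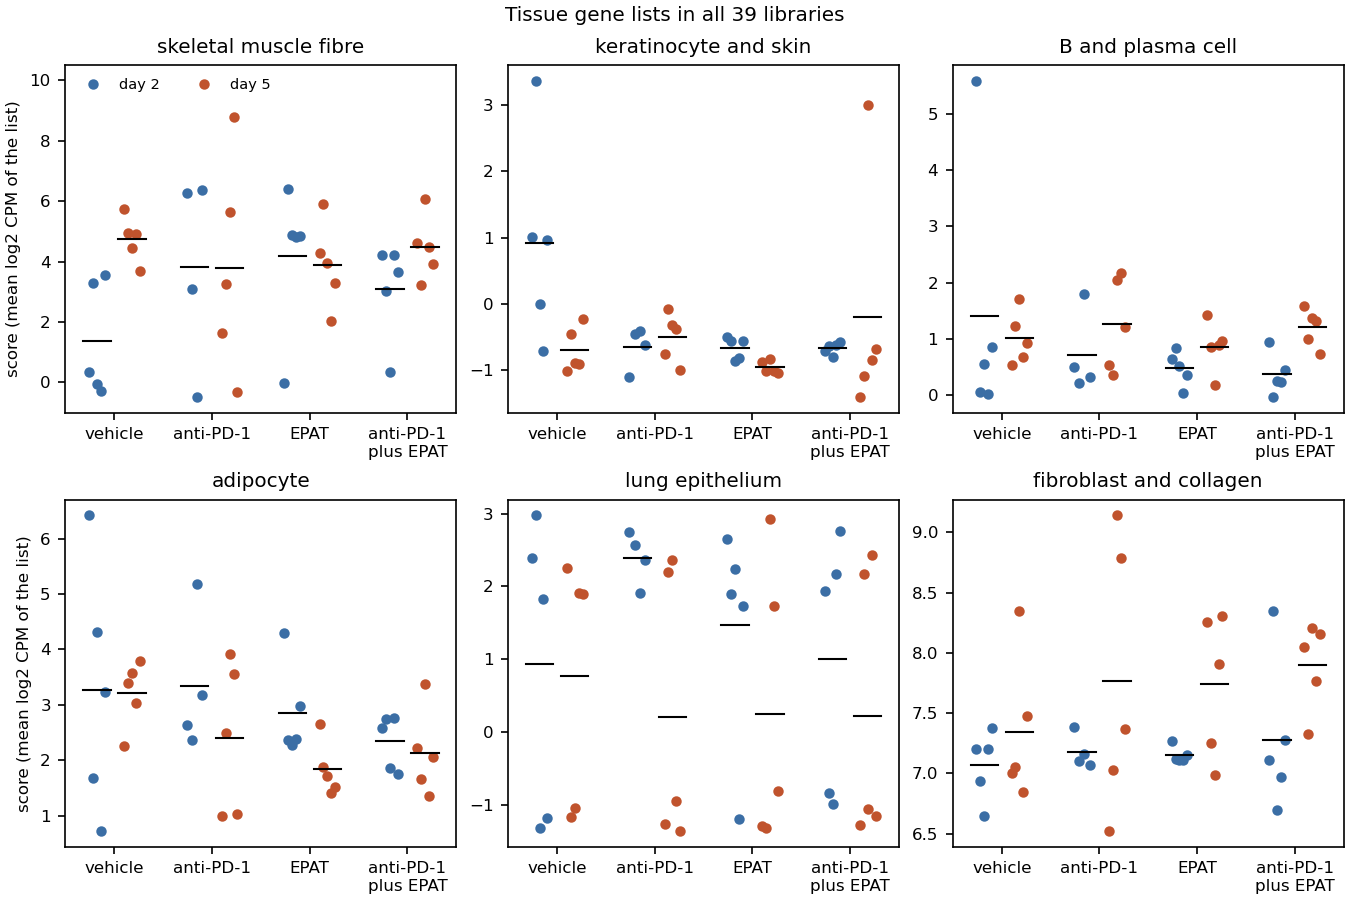
Scores of 6 tissue lists (mean log2 CPM of the tested members, vertical axis) in all 39 libraries by treatment, blue for day 2 and red for day 5, with bars at the group means. The vehicle day 5 libraries lie between 3.67 and 5.73 in muscle, above all 5 vehicle day 2 libraries, and single day 2 libraries stand out in keratinocyte and in B cell genes.

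Skin, B cell and fat genes were lower on day 5 by their means. Of 16 keratinocyte genes, 10 were tested, 9 of these were negative, and 7 were at an unadjusted p under 0.05 against 2.3% of all genes. The members vary together, and those high on day 2 can pass the count filter partly through that group. The 7 are thus not independent, and their share is not comparable to that of all genes. The median was -3.28, also with Krt5 set at a floor of 3 counts over the day 5 group. Krt14, a basal keratin, was at 2.64, 60.9, 1.04, 0.517 and 1.71 CPM on day 2 and 0.335, 0.775, 0.0957, 0.205 and 0.177 CPM on day 5. Its partner Krt5 had 226 counts on day 2, 174 of them in replicate 2, and 0 on day 5. With a floor of 3 counts over the day 5 group it was 80.3-fold lower. The 95% counting interval of its day 5 to day 2 ratio reached up to 0.0154. Dsp, the desmosome protein desmoplakin, was at 3.99, 23.8, 0.883, 0 and 2.61 CPM and 0.586, 0.0969, 0.191, 0 and 0.236 CPM. Day 2 replicate 2 was highest in each of the 3, day 2 replicate 4 was at or near 0, and the list score was 1, 3.36, -0.01, -0.71 and 0.96 on day 2 and -1.02, -0.46, -0.89, -0.91 and -0.23 on day 5. Without day 2 replicate 2, Krt14 was at -2.22 and Dsp at -3.02, against -5.39 and -4.75 with it. Over the treated arms the list had a median of 0.6, with 0.42 for anti-PD-1, -0.66 for EPAT and 2.03 for the combination, where day 5 replicate 3 alone had a high score.

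Of 15 B and plasma cell genes 7 were tested, with a median of -1.9. All 7 were negative at an unadjusted p under 0.05, where 2.3% of all genes tested were. These genes vary together, so the 7 are not independent. The score was 5.58, 0.07, 0.55, 0.02 and 0.86 on day 2 and 0.55, 1.23, 1.71, 0.68 and 0.94 on day 5, so that replicate 1 alone was high. Mzb1, a chaperone of antibody secretion, was at 29.8, 0, 0.964, 0.129 and 0.27 CPM on day 2, and without replicate 1 its log2 fold change of -3.44 became 0.67. Cd22, a B cell receptor for sialic acid, went from -1.97 to 0.16 in the same way. Cxcl13, the chemokine of B cell follicles, was at 50.7, 2.62, 1.04, 3.36 and 6.67 CPM on day 2 and 1.42, 3.29, 1.34, 2.19 and 6.01 CPM on day 5, a log2 fold change of -2.16 that was -0.25 without day 2 replicate 1. Without day 2 replicates 1 and 2, the B cell score differed by 0.55 between the days and the keratinocyte score by -0.78.

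Adipocyte genes had 14 of 15 negative and a median of -1.28. In the lower direction 4 were at an unadjusted p under 0.05, against 2.3% of all genes tested. These genes can vary together, so the 4 are not independent. The mean score of the list, however, differed by only -0.07, and by 0.45 without day 2 replicates 1 and 2. In that score day 2 replicates 1 and 3 lay above every day 5 library and replicates 2 and 4 below every one. Adipoq, adiponectin, was at 238, 0.874, 30.8, 0.323 and 11.4 CPM on day 2 and 3.1, 14.9, 16.9, 7.38 and 18.9 CPM on day 5 (-2.20 ± 1.10), and at 0.17 without day 2 replicate 1. Scd1, a fatty acid desaturase, was at 681, 125, 102, 81.6 and 86.5 CPM and 83.3, 107, 61.2, 98.1 and 149.6 CPM (-1.11 ± 0.46), likewise with replicate 1 high, and Adrb3, the beta-3 adrenergic receptor of fat, at -3.33 ± 1.09. All 10 lung epithelium genes were negative with a median of -0.28 and 0 at an unadjusted p under 0.05, and 5 of 5 tested erythroid genes were positive with a median of 0.62 and 0 at that level.

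The lists drawn up for tumour cell programmes differed little by their medians, but in whole-tumour RNA their transcripts can also come from host cells. Of 30 cell cycle genes 28 were negative and 2 positive, with a median of -0.19. Only 1 was at an unadjusted p under 0.05, in the lower direction, against 2.3% of all genes tested. This was Cenpe, a kinetochore motor, at 286, 324, 357, 287 and 317 CPM on day 2 and 313, 224, 167, 287 and 197 CPM on day 5 (-0.40 ± 0.18). Kif20a, a motor of cytokinesis, was at -0.53 ± 0.29, Cenpf, a kinetochore protein, at -0.39 ± 0.22, and Ccne1, cyclin E1, at 0.35 ± 0.20. Mki67, the proliferation antigen Ki-67, was at 312, 383, 313, 260.4 and 301 CPM on day 2 and 429.5, 172, 178, 319.6 and 142 CPM on day 5. Day 5 replicates 2, 3 and 5 were below all day 2 libraries and replicate 1 above them all, so the groups overlapped (-0.34 ± 0.24). Over the treated arms all 30 cell cycle genes were negative, with a median of -0.33 and 1 called lower.

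MAPK output and feedback genes had 12 of 17 negative and a median of -0.18. Ier3, an early response gene, was at 91.8, 90.3, 119.5, 109 and 120.1 CPM on day 2 and 75.7, 289, 179, 164 and 160.3 CPM on day 5 (0.71 ± 0.27), day 5 replicate 1 being the lowest of all 10. The feedback inhibitor Spry1 was at -0.66 ± 0.35, the immediate early factor Egr1 at -0.45 ± 0.25 and Ccnd1, cyclin D1, at -0.12 ± 0.30. Neural crest and dedifferentiation genes had 6 of 14 positive and a median of -0.02, and the mean score differed by 0.01, in the other direction. Mitf was at -0.06 ± 0.20.

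Hypoxia and glycolysis genes had 21 of 27 positive, a median of 0.18 and none at an unadjusted p under 0.05 in the higher direction. Ldha, lactate dehydrogenase A, was at 343, 286, 439.7, 413 and 332 CPM on day 2 and 338, 526, 321, 563 and 546 CPM on day 5 (0.34 ± 0.23). Day 5 replicates 2, 4 and 5 exceeded every day 2 library and replicates 1 and 3 did not. Ndrg1, a hypoxia-induced gene, was at 0.37 ± 0.24 and Ddit4, an inhibitor of mTOR, at -0.53 ± 0.25. Vegfa, the vessel growth factor, was at 77.3 to 137 CPM on day 2 and 93.8 to 133 CPM on day 5 (-0.04 ± 0.37), and Car9, the hypoxia marker carbonic anhydrase 9, at 0.991 to 2.01 and 1 to 2.42 CPM (0.33 ± 0.56).

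In the unfolded protein response list 1 gene had separate groups. Herpud1, a component of degradation at the endoplasmic reticulum, was at 64.2, 51.5, 49.2, 55.6 and 56.4 CPM on day 2 and 79.5, 104, 79.6, 76.1 and 90.6 CPM on day 5, with no overlap and a log2 fold change of 0.64 ± 0.19 (edgeR adjusted p 0.666). Over the treated arms it was at 0.04 ± 0.11. Sdf2l1, a chaperone cofactor of the same compartment, was at 0.59 ± 0.25 and the stress factor Atf3 at 0.78 ± 0.33 (0.39 without day 5 replicate 3), but the list as a whole had 11 of 19 positive and a median of 0.08. Among 12 p53 targets, with a median of -0.06, Bax, a trigger of apoptosis, was at 13.9, 12.1, 19.7, 9.63 and 15.1 CPM and 32.9, 26.5, 16.8, 41.1 and 14.2 CPM (0.90 ± 0.31) and Trp53inp1 at -0.35 ± 0.17. Heat shock, oxidative stress, cholesterol synthesis and glucocorticoid-induced genes had medians of 0.1, 0.1, -0.1 and 0.01, and immediate early genes 0.05. In the circadian clock list (median -0.03) the repressor Cry1 was at 0.38 ± 0.14 and Nr1d1, a nuclear receptor of the clock, at 0.32 ± 0.17.

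Mitochondrially encoded genes had 7 of 8 negative with a median of -0.39, and their score was 8.88, 9.19, 9.44, 9.24 and 9.12 on day 2 and 8.91, 8.84, 8.76, 8.7 and 8.18 on day 5. Day 5 replicate 5 was the lowest. mt-Nd2, another complex I subunit, was at -0.59 ± 0.21, mt-Nd4 at -0.48 ± 0.26 and the cytochrome b gene mt-Cytb at -0.35 ± 0.21. The share of counts in mitochondrial genes was 7.68% to 10.6% on day 2 and 4.0% to 11.7% on day 5 (exact permutation p = 0.492). For the nuclear-encoded respiratory chain the score of all 20 genes had every day 5 library above every day 2 library. That separation came with 3 isoforms of striated muscle, Cox6a2 (2.41 ± 0.98), Cox7a1 (0.68 ± 0.59) and Cox8b (2.16 ± 1.20). The other 17 genes had a median of 0.01 and a score difference of 0.008.

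**Figure D3:**
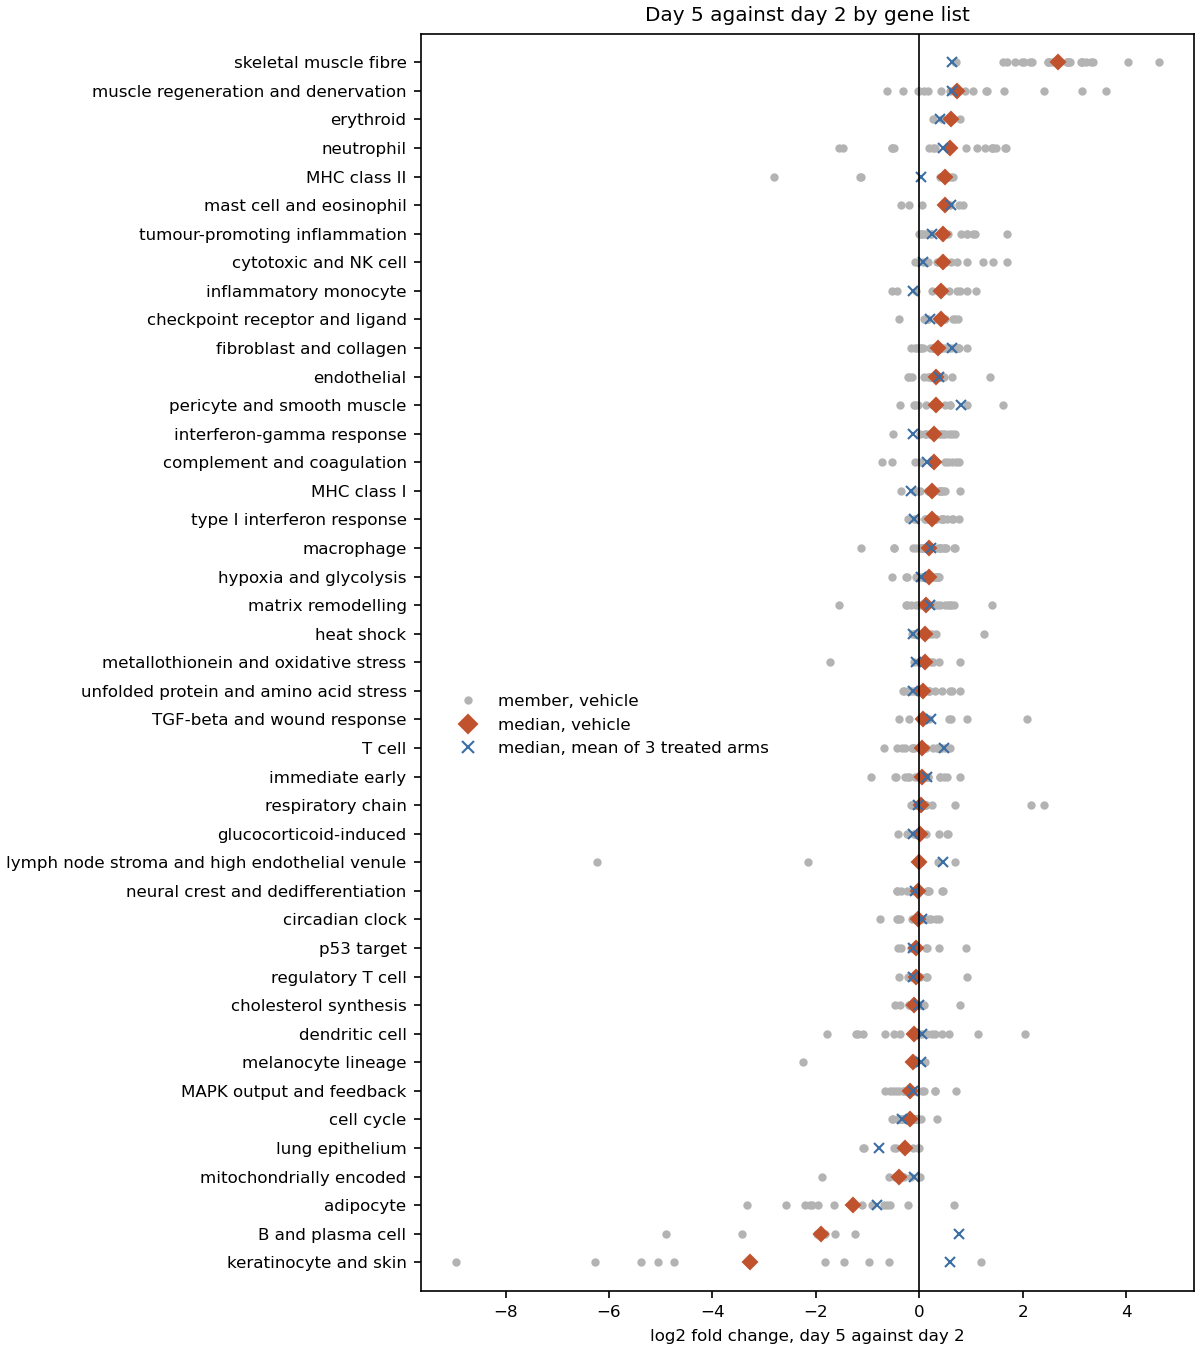
Log2 fold change of day 5 against day 2 (horizontal axis) for the tested members of 43 gene lists in vehicle tumours (grey points), with the list median (red diamond) and the median of the same genes in the mean of the treated arms (blue cross). Muscle fibre genes lie farthest to the right with a median of 2.68 and keratinocyte genes farthest to the left with -3.28, and the medians of most other lists lie near 0.

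Stromal lists were mostly positive, with much of the difference in day 5 replicate 3. Fibroblast and collagen genes had 19 of 22 positive, a median of 0.36 and none at an unadjusted p under 0.05. Col1a1, a chain of type I collagen, was at 1451, 1648, 980.1, 1803 and 1861 CPM on day 2 and 1425, 1784, 4500.0, 1021 and 2565 CPM on day 5 (0.54 ± 0.45). Its partner Col1a2 was at 0.76 ± 0.49, the proteoglycan Bgn at 0.91 ± 0.52 and fibrillin Fbn1 at 0.61 ± 0.32. For Col1a1, day 5 replicates 3 and 5 exceeded the day 2 range and the other 3 lay within it. Without day 5 replicate 3 the 4 values were 0.13, 0.10, 0.27 and 0.34. The score difference of the list was 0.27 with day 5 replicate 3 and 0.02 without it. Within libraries without lung transcripts, which on day 5 are replicates 2 and 3, it was 0.69, and within those with them -0.01. The 2 splits thus share replicate 3 and cannot be told apart.

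Endothelial genes had 19 of 22 positive and a median of 0.31. Aplnr, the apelin receptor of sprouting vessels, was at 1.58, 1.62, 1.85, 0.905 and 1.98 CPM on day 2 and 2.09, 3.68, 8.61, 2.05 and 4.13 CPM on day 5, without overlap (1.37 ± 0.63), and the junction genes Cdh5 and Pecam1 were at 0.43 ± 0.25 and 0.42 ± 0.35. Without day 5 replicate 3 Aplnr was at 0.92 and Pecam1 at 0.03, and the score difference of the endothelial list went from 0.25 to 0.08. Pericyte and smooth muscle genes had 8 of 12 positive, with Acta2, smooth muscle actin, at 0.93 ± 0.57 and Rgs5 at 0.59 ± 0.49 (0.09 without day 5 replicate 3). The TGF-beta and wound response list had 10 of 12 positive and a median of 0.07. In the higher direction 3 were at an unadjusted p under 0.05, against 3.2% of all genes tested. These 3, which can vary together, are given here. Lox, which cross-links collagen, was at 72.2, 30.8, 61.8, 62.9 and 62.2 CPM and 91.4, 82.6, 179, 92.7 and 104 CPM, again without overlap (0.92 ± 0.40). Tgfb1, the growth factor itself, was at 35.3, 22.6, 28.5, 21.5 and 27.9 CPM and 26.7, 45.4, 52.2, 42 and 40.5 CPM (0.61 ± 0.18). Ltbp2, a latent TGF-beta binding protein family member of elastic fibres, was at 4.22, 1.5, 2.89, 2.65 and 2.79 CPM and 3.35, 7.94, 34.4, 6.22 and 8.26 CPM (2.07 ± 0.59), with day 5 replicate 3 far above the others and 1.18 without it. In matrix remodelling, Timp1, a protease inhibitor, was at 0.59 ± 0.23, Thbs1, thrombospondin, at 0.68 ± 0.31, and the gelatinase Mmp9 at -1.55 ± 0.66, with 13 of 19 positive.

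Most immune lists had small positive medians, with regulatory T cell, dendritic cell and B cell genes as exceptions, and for several the difference was smaller without day 5 replicate 3. Cytotoxic and NK cell genes had 16 of 17 positive and a median of 0.45. In the higher direction 4 were at an unadjusted p under 0.05, against 3.2% of all genes tested. Members of a list can vary together, so the 4 are not independent. Ifng, the interferon of T and NK cells, was at 1.51, 0.499, 1.85, 3.88 and 3.33 CPM on day 2 and 3.01, 5.81, 13.7, 3.76 and 4.25 CPM on day 5 (1.43 ± 0.65). Tbx21, the factor T-bet, was at 1.22 ± 0.52, perforin Prf1 at 0.93 ± 0.42 and granzyme Gzmk at 1.70 ± 0.81. Without day 5 replicate 3, Ifng was at 0.90, Tbx21 at 0.80 and Prf1 at 0.46. Their list score differed by 0.55 with all libraries, 0.33 without day 5 replicate 3 and 0.25 without day 2 replicates 1 and 2. T cell genes had 12 of 20 positive and a median of 0.06, with Cd8a at 6.72 to 21.5 CPM on day 2 and 10.3 to 32.8 CPM on day 5 (0.60 ± 0.59) and Tcf7, a factor of naive and memory-like T cells, at -0.43 ± 0.27. Regulatory T cell genes had 4 of 8 positive and a median of -0.07.

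Among 10 checkpoint genes, 9 were positive. Havcr2, which encodes TIM-3, was at 9.34, 8.73, 9.64, 9.95 and 13.2 CPM and 13.3, 15.7, 25.4, 14.3 and 17.1 CPM (0.75 ± 0.30), and Entpd1, the ectonucleotidase CD39, at 23.1, 26.5, 24.7, 28.4 and 29.5 CPM and 39.8, 34.4, 63.4, 40.2 and 30.2 CPM (0.65 ± 0.26). Both had separate groups, by narrow margins. Pdcd1, the gene of PD-1, was at 0.17 ± 0.50 and Cd274, its ligand, at 0.69 ± 0.45, or 0.24 without day 5 replicate 3.

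Inflammation genes had 17 of 18 positive with a median of 0.46. In the higher direction 4 were at an unadjusted p under 0.05, against 3.2% of all genes tested. These genes can vary together, so the 4 are not independent. Tnf was at 10.2, 4.74, 6.43, 5.17 and 6.49 CPM on day 2 and 8.87, 11.7, 24.7, 14.2 and 9.02 CPM on day 5 (1.04 ± 0.37), the chemokines Ccl3 and Ccl4 at 1.07 ± 0.45 and 0.92 ± 0.37, and Il1b at 0.91 ± 0.41. Their score difference of 0.33 was 0.08 without day 5 replicate 3, and Ccl3 and Il1b were then at 0.56 and 0.45. Neutrophil genes had 14 of 19 positive, a median of 0.59 and a score difference of 0.41 that was 0.05 without that library. Csf3r, the G-CSF receptor, was at 1.39 ± 0.52, and S100a8, a calprotectin subunit, at 13.5, 7.61, 9.16, 7.3 and 32.8 CPM and 5.19, 16.9, 152, 10.1 and 39.3 CPM (1.67 ± 0.89). Without day 5 replicate 3, Csf3r was at 0.82 and S100a8 at 0.35. Inflammatory monocyte genes had 9 of 12 positive, with Chil3 at 1.09 ± 0.50 and Gpr141 at 0.72 ± 0.35, and macrophage genes 15 of 20, with Adgre1, the antigen F4/80, at 0.69 ± 0.32 and complement C1qa at 0.49 ± 0.26.

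Dendritic cell genes had 8 of 19 positive and a median of -0.11. An unadjusted p under 0.05 was found for 3, against 5.49% of all genes tested in either direction. Members can vary together, so the 3 are not independent. Batf3, a transcription factor of cross-presenting dendritic cells, was at 5.57, 3.49, 5.54, 6.46 and 7.21 CPM on day 2 and 8.28, 17.1, 18.6, 8.88 and 9.73 CPM on day 5, without overlap (1.13 ± 0.33), and Xcr1, their chemokine receptor, at 1.81, 0.125, 1.93, 1.36 and 1.26 CPM and 2.17, 6.1, 15.6, 2.46 and 1.42 CPM (2.04 ± 0.59). Without day 5 replicate 3 the value of Xcr1 was 1.17. Irf4, a factor that B and plasma cells also make, was at -1.19 ± 0.54, and at -0.03 without day 2 replicate 1. Over the treated arms Xcr1 was at 1.17 ± 0.33 (edgeR adjusted p 0.0663) and Batf3 at 0.05 ± 0.19. Mast cell and eosinophil genes had 6 of 8 positive with a median of 0.49, and complement and coagulation genes 8 of 11 with 0.27.

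Interferon and antigen presentation genes were positive in most members with none at an unadjusted p under 0.05 outside MHC class II. Without day 5 replicate 3 the type I score difference went from 0.282 to 0.208 and the interferon-gamma one from 0.297 to 0.145. MHC class I then went from 0.234 to 0.091 and MHC class II from 0.222 to 0.015. Without day 2 replicates 1 and 2 the score differences were 0.102, 0.184, 0.043 and 0.259, in that order. The type I interferon list had 20 of 23 positive and a median of 0.24, with Oas1a at 0.77 ± 0.40. The interferon-gamma list had 17 of 18 and 0.28, with the factor Irf1 at 0.38 ± 0.35, or 0.09 without day 5 replicate 3. MHC class I genes had 13 of 16 and 0.25, with B2m at 0.39 ± 0.21 and H2-K1 at 0.42 ± 0.26. Of MHC class II genes 7 of 10 were positive with a median of 0.49, the exchange factor H2-DMb1 at 0.64 ± 0.26, the protease Ctss at 0.53 ± 0.26, and H2-Ob, which is made by B cells, at -2.81 ± 0.77 and 0.06 without day 2 replicate 1. The medians of the type I, interferon-gamma and MHC class I lists over the treated arms were -0.1, -0.11 and -0.16. The difference between the arms passed for no member in edgeR.

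**Figure D4:**
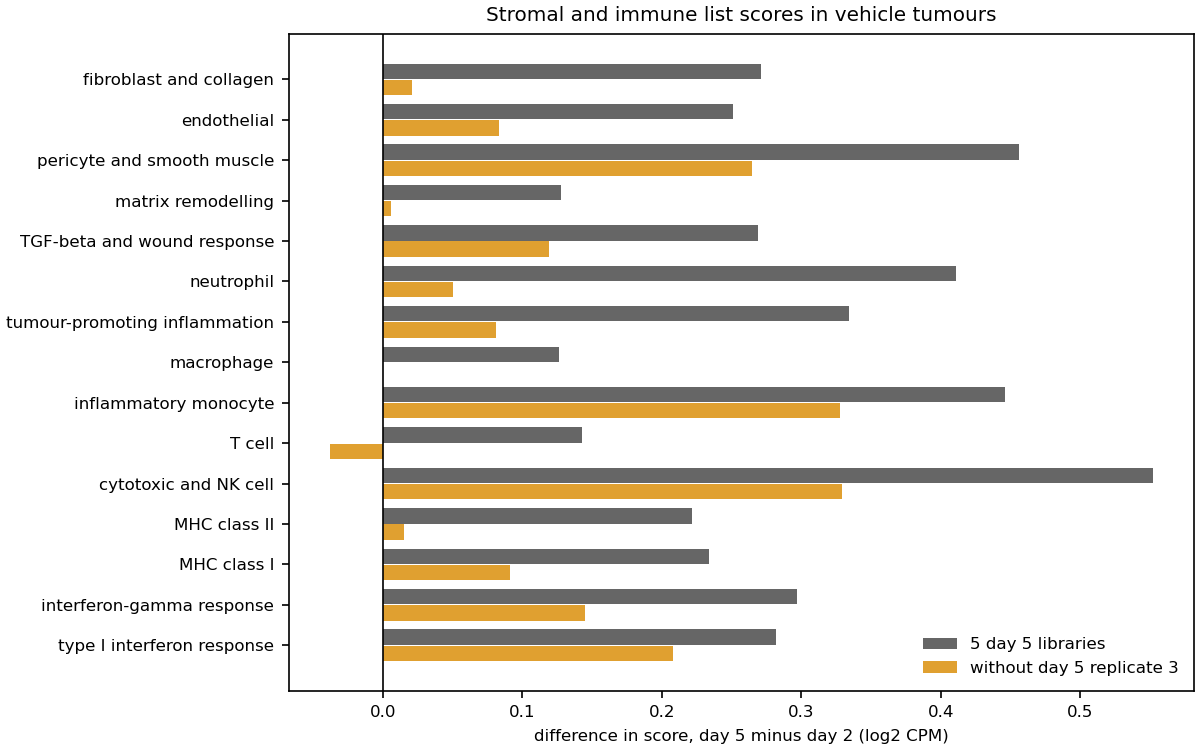
Difference in list score between day 5 and day 2 vehicle tumours (horizontal axis, log2 CPM) for 15 stromal and immune lists, with all 5 day 5 libraries (grey bars) and without day 5 replicate 3 (orange bars). The difference of the fibroblast list goes from 0.27 to 0.02 and that of the neutrophil list from 0.41 to 0.05.

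Genes of the prostaglandin pathway that EPAT addresses were also reported. Ptgs2, the inducible cyclooxygenase, was at 60.9, 149, 85.5, 49.4 and 59.9 CPM on day 2 and 88.8, 143, 91.3, 92.3 and 55.1 CPM on day 5 (0.22 ± 0.50). The receptor genes Ptger2 and Ptger4 were at 0.42 ± 0.48 and 0.48 ± 0.31, and over the treated arms Ptger4 rose by 0.75 (edgeR adjusted p 0.037). Arg1, arginase of suppressive myeloid cells, was at 17 to 73.8 CPM on day 2 and 2.52 to 113 CPM on day 5 (0.05 ± 0.77), and Nos2, the inducible nitric oxide synthase, at 0.81 ± 0.71, or -0.48 without day 5 replicate 3.

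Whether the day difference was particular to vehicle tumours was tested directly. The vehicle difference minus the mean difference of the treated arms called 0 of 15070 genes (0%) in edgeR, where the smallest adjusted p was 0.622 and 530 genes had an unadjusted p under 0.05. Taken over the 3 treated arms, which hold 29 libraries against 10, day 5 against day 2 called 162 genes (1.07%), 125 higher and 37 lower. This mean was added as a comparison after the data had been seen. Each arm alone called 0 genes for anti-PD-1, 0 for EPAT and 2 for the combination.

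The 162 genes mostly pointed the same way in vehicle tumours. Of them 143 (88.3%) had the same sign there, against 61% of all genes tested. The same sign and an unadjusted p under 0.05 in vehicle were found for 31 (19.1%). These were 28 of the 125 higher genes (22.4%), where 3.2% of all genes tested were higher at that level in vehicle. The others were 3 of the 37 lower genes (8.11%), where 2.3% of all genes were lower at that level. Genes among the 162 can vary together, so they are not independent. None of the 31 was on the fibroblast and collagen list as drawn up here. Collagen genes outside that list were among them, Col23a1 (1.88 ± 0.84 in vehicle) and Col11a1 (1.13 ± 0.55). Over the treated arms all 22 genes of the list were positive and 5 were called higher. Both collagen genes and the following were picked from the 31 after their values were seen. Ltbp2 was at 2.07 in vehicle and 1.99 ± 0.35 in the treated arms (adjusted p 0.00334 in the latter, edgeR). Adamts16, a secreted protease, was at 2.87 ± 0.81 and 2.60 ± 0.50, and Mfap4, a microfibril protein, at 2.23 ± 0.89 and 2.75 ± 0.52. Olfml3, a secreted matrix glycoprotein, was at 1.05 ± 0.39 and 1.21 ± 0.23, and Pcsk5, a proprotein convertase, at 1.37 ± 0.51 and 1.62 ± 0.30. Without vehicle day 5 replicate 3 the vehicle values were 1.18 for Ltbp2, 0.65 for Olfml3 and 0.65 for Pcsk5, and Mfap4 was at 1.08 with the muscle score as a covariate. Libraries with lung transcripts made up 12 of 14 treated day 2 and 6 of 15 treated day 5 libraries but 3 of 5 in either vehicle group. With lung transcripts as a covariate 33 genes were called in the treated arms. Without day 5 replicate 3 of vehicle, which enters that fit through the shared spread, the count was 254.

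**Figure D5:**
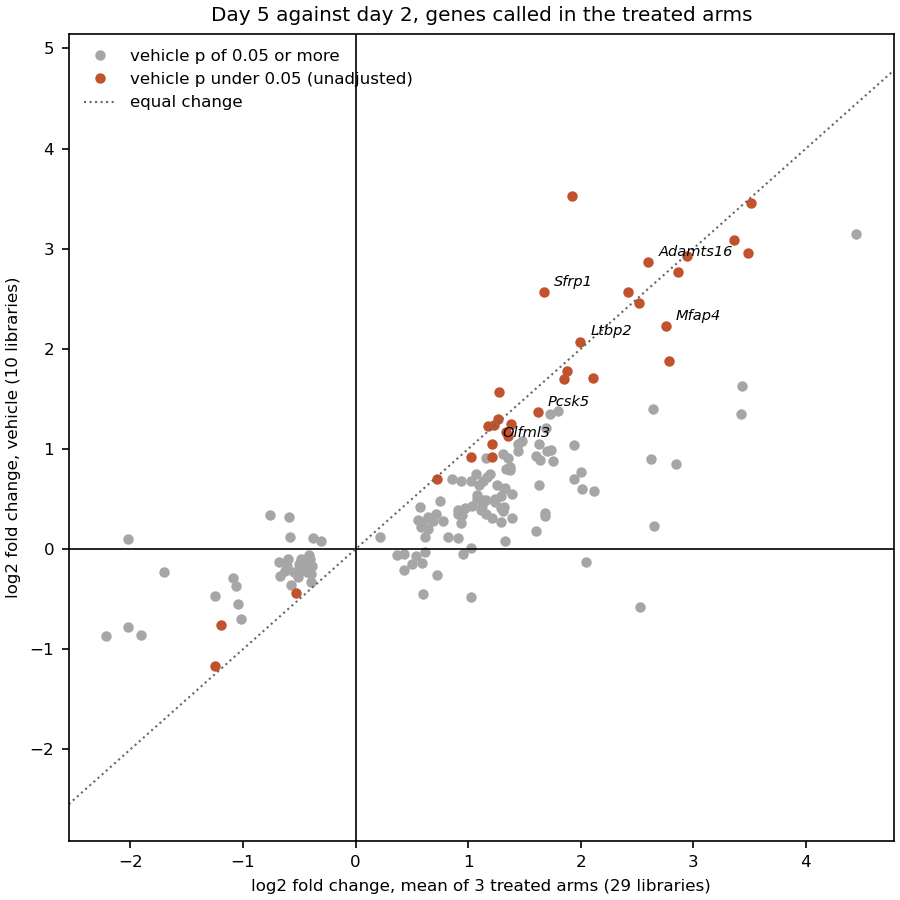
Log2 fold change of day 5 against day 2 in vehicle tumours (vertical axis, 10 libraries) against that in the mean of the 3 treated arms (horizontal axis, 29 libraries) for the 162 genes called in the treated arms. Red points have an unadjusted p under 0.05 in vehicle and the dotted line marks equal values. Of the 162 points, 143 have the same sign on both axes.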

How the data were processed

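Bulk tumour RNA was sequenced as 39 libraries with a QuantSeq 3′ forward kit from 500 ng of total RNA, per the labels' protocols. The authors deposited whole-number counts per Ensembl gene (39179 genes, 13751 without a count) and a log2 table of 16095 genes that equals log2(count + 0.5) plus 1 constant per library, to within 5e-09. Per the submitters' processing notes, bcl2fastq, STAR, featureCounts and limma were used with mm10/GRCm38. The sources used here give neither versions nor the strand setting, so overlapping genes and near-identical copies cannot be told apart. GENCODE's gene models on GRCm38 supplied the names and coordinates (37693 identifiers matched, 14915 of those tested).

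Counts were tested with edgeR 4.0.16 in R 4.3.3: filterByExpr (minimum count 10, minimum total 15), which left 15070 genes, TMM scaling, a robust quasi-likelihood fit to all 39 libraries with 1 mean per group (31 residual degrees of freedom, biological coefficient of variation 0.323), a 2-sided F test and Benjamini-Hochberg adjustment over all genes, with a threshold of 0.05. DESeq2 1.42.0 and limma 3.58.1 served as alternatives. Dividing a log2 fold change by the square root of its F gave the SE. Scores are mean log2 CPM with a prior count of 2, and lung transcripts count as present from 1 CPM of Sftpc, Sftpa1 and Scgb1a1 summed. Library-level values had an exact permutation test over 252 splits, adjusted over 6 values. The script was checked on simulated counts.

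Whether replicates were separate animals is not labelled, so p-values cover only the spread among these libraries, which may be technical. Since no gene passed, the named genes were the 5 with the smallest p in each direction, the 4 members of each list with the smallest p, of which the text gives those its description uses, and 26 genes always reported. Members and the 43 lists were chosen with earlier results of these data known. Tnni1 and Myl1 were named after their values were seen. So were Adamts16, Mfap4, Olfml3, Pcsk5, Col23a1 and Col11a1, which were called in the treated arms. The mean of the treated arms and the fit without day 2 replicates 1 and 2 were also added then. Promoters came from RefSeq on GRCm38.p6.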

Additional observations from a re-analysis of the deposited data

Results flagged for a closer look

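Within the vehicle groups of 5, the gap of the highest or lowest library to its nearest neighbour was compared with the range of the group for 330 groups of values, and 24 had a library far from the others. Chance flags about 1 in 20 groups. Values are log2 CPM unless stated, and the range of the other 4 libraries follows each.

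Day 2 replicate 1 was high in the B and plasma cell score (5.58 against 0.03 to 0.86), the lymph node score (4.02 against 0.47 to 1.47), Glycam1 (9.04 against -1.3 to -0.18), Ms4a1 (6.57 against -2.03 to -0.7), Scd1 (9.41 against 6.35 to 6.97) and Ednrb (4.91 against 4.04 to 4.28). Day 2 replicate 2 was low in the MHC class I score (5.63 against 6.32 to 6.55), Xcr1 (-1.79 against 0.51 to 1.07), Tbx21 (-0.34 against 1.98 to 2.48), Lox (4.95 against 5.95 to 6.18), Ptger4 (3.15 against 3.77 to 4) and Mfap4 (-2.61 against -1.04 to -0.53). The same library was high in the share of counts of Gm42418, a gene that overlaps ribosomal RNA, at 6.99% against 2.6% to 3.47%.

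Day 5 replicate 3 was high in the T cell score (3.97 against 2.94 to 3.16), the dendritic cell score (3.54 against 2.42 to 2.7), Col1a2 (13.01 against 10.83 to 11.32), Rgs5 (6.55 against 4.65 to 5.12), Irf1 (9.3 against 8.16 to 8.28) and Krt15, of which it held the single count of day 5 (-1.95 against -2.61). It was low in Myh7 at -2.61, the value of 0 counts, against 1.4 to 2.41.

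The others were single values: mt-Nd3 was high in day 2 replicate 3 (3.18 against 1.03 to 1.46), Mitf in day 2 replicate 4 (5.81 against 5.35 to 5.48), Chrng in day 2 replicate 5, the only day 2 library with counts (-1.2 against -2.61), and Ednrb in day 5 replicate 1 (4.43 against 4.05 to 4.12).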

How the results depend on the processing

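The vehicle comparison called 0 genes in edgeR under RLE size factors, TMM without muscle and mitochondrial counts, either filter, both tissue covariates, the replicate block, all 10 fits that left out 1 vehicle library and the fit without day 2 replicates 1 and 2, and 0 in limma-voom. It called 10 in DESeq2 (Igfn1 and Crct1 beside those described above) and 1 in limma-trend (Kng2). In edgeR fitted to only the 10 vehicle libraries it called 3 (Kng2, Cilp and Angptl1). Igfn1, Crct1, Cilp and Angptl1 are named after their values were seen. The vehicle difference minus the treated mean called 0 except 2 in DESeq2 (Igfn1 and Krt5), with 1452 at an unadjusted p under 0.05 in limma-voom, where the vehicle comparison had 1120. Each fit without 1 library gave 0 for both.

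The treated mean called 162 genes, 473 in DESeq2, 642 in limma-voom, 60 in limma-trend, 73 with no filter, 69 from 10 CPM, 33 with lung transcripts and 59 with the replicate block as a term, and 150 to 254 without 1 vehicle library, the highest without day 5 replicate 3. The cause was not tested.

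Signs turned as follows. Without day 2 replicate 1 the log2 fold change was 1.75 for Glycam1, 1.35 for Ms4a1, 0.17 for Adipoq, 0.017 for Scd1, 0.67 for Mzb1, 0.16 for Cd22, 0.024 for Ednrb and 0.062 for H2-Ob, the highest of fits without 1 library, whose lowest were -7.67, -5.27, -2.53, -1.32, -3.76, -2.36, -0.24 and -3.23. Without day 2 replicates 1 and 2 it was 1.59 for Glycam1, 1.54 for Ms4a1, 0.15 for Scd1, 0.34 for Mzb1, 0.115 for Cd22 and -0.101 for Pdcd1. With the muscle score as a covariate it was -0.82 for Myod1, 0.0039 for Ccnd1, 0.36 for Vegfa, -0.30 for Cox7a1, -1.27 for Cox8b, -0.068 for Cd8a and -0.34 for Pdcd1. In limma-voom it was 0.095 for Ms4a1, 0.88 for Adipoq, -0.49 for Nos2 and -0.53 for Arg1, and in limma-trend 0.39, -0.15 and -0.63 for the last 3. Leaving out 1 library gave -0.14 to 0.028 for Mitf, -0.23 to 0.0038 for Ccnd1, -0.14 to 0.059 for Vegfa, -0.48 to 1.09 for Nos2 and -0.97 to 0.49 for Arg1.

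Title numbers gave a correlation of deviations of -0.23 to 0.06 for the 5 same-numbered pairs, and 0 of 5 day 2 libraries were closest to their own number. They share only a number, and the block changed no sign among 116 genes. Low counts limit Krt15, Krt5 and Chrng.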
